A study of Mus musculus with 12 samples.

Results

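The inflammasome and necroptosis genes described here are *Casp1*, *Casp4*, *Casp8*, *Nlrp3*, *Pycard*, *Gsdmd*, *Mlkl*, *Ripk1*, *Ripk3* and *Il1b*. They were picked out by gene symbol, 10 of the 24421 genes listed in each of 12 RNA-seq libraries. The rule uses names, but the names were chosen with earlier results of these data known. All 10 were found in every library. Inflammasomes are cytosolic complexes in which a sensor such as NLRP3 gathers the adaptor ASC, the product of *Pycard*, and caspase-1, which then cleaves pro-IL-1β and the pore-forming protein gasdermin D. Caspase-11, the product of *Casp4*, senses cytosolic lipopolysaccharide and cleaves gasdermin D directly. Necroptosis runs from RIPK1 to RIPK3 to the membrane-breaking pseudokinase MLKL, and caspase-8 holds it in check by cleaving RIPK1 and RIPK3.

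The cells were BMMs, the bone marrow-derived macrophages from which osteoclasts form, grown from bone marrow with M-CSF for 3 days. Their strain is given as C57BL/6 and was not checked in the libraries. According to the study's text all groups carried *LysMcre*, the Cre recombinase driven by the lysozyme M promoter of myeloid cells. The presence of the Cre was not checked in the libraries. In the loss of function experiment, WT (Mir182+/+) and Mir182ΔM/ΔM cells, which carry floxed *Mir182*, were sequenced without RANKL (Basal) and after 5 days of RANKL, the cytokine that drives osteoclast differentiation. In the gain of function experiment, Control and Mir182mTg cells, the latter with a Cre-activated *Mir182* transgene, were sequenced without RANKL. Each of the 6 conditions had 2 replicates, and the mice's ages were not given in the labels. Levels are CPM, the reads on a gene scaled to the same total in each library, and all differences are on a log2 scale. An adjusted p-value under 0.05 is the threshold for every call. The study's text calls the replicates biological, but the labels do not give whether each came from its own mouse or culture, so p-values measure the spread between these samples, which may be technical. The labels give polyA RNA for replicate 1 and total RNA for replicate 2. The main fits have no term for the replicate number, so that difference is part of the spread.

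The libraries held 24951280 to 33050619 reads on genes. *Lyz2*, the lysozyme gene, read 4117 and 4288 CPM in the WT RANKL libraries and between 22.5 and 44.0 CPM in the other 6 loss of function libraries, while the 4 gain of function libraries read 5783 to 7062 CPM. *Ifi202b* read 1.12 and 0.972 CPM in WT RANKL and 82.1 to 152 CPM in the other loss of function libraries, and 0 to 0.0908 CPM in the gain of function libraries. The WT RANKL libraries thus stood apart from their own experiment in both genes and were nearer to the gain of function libraries. Whether the label, the genotype or the cell origin of the WT RANKL libraries is as described is in doubt and was not tested. The strain and the origin of the cells of the other libraries were not tested either. The RANKL response in WT, the comparison of genotypes after RANKL and the interaction all rest on the WT RANKL libraries. They could not be made without these libraries. The other comparisons do not need the WT RANKL libraries. Mature miR-182 is not measured in mRNA libraries, and the *Mir182* row read 2.39 and 4.40 CPM in Mir182mTg and at most 0.0370 CPM, which is 1 read, in the other 10 libraries. This row checks the transgene and not the deletion. All 7 macrophage markers were listed, with summed levels of 5683 to 8655 CPM over the 12 libraries. The 9 osteoclast markers summed to 116 to 168 CPM without RANKL, 10585 to 10797 CPM in WT RANKL and 3171 to 3201 CPM in Mir182ΔM/ΔM RANKL. Macrophage markers summed to 8468 to 8655 CPM in WT Basal and 5683 to 5744 CPM in WT RANKL, and to 7624 to 7629 and 6011 to 6097 CPM in Mir182ΔM/ΔM. The 7 neutrophil markers found summed to 90.9 to 100.035 CPM in WT Basal, 21.9 to 22.2 CPM in WT RANKL, 109 to 115 CPM in Mir182ΔM/ΔM Basal and 7.19 to 7.36 CPM in Mir182ΔM/ΔM RANKL. The 5 stromal markers to 1.60 to 32.8 CPM, the 7 B and T cell markers to 0.394 to 3.71 CPM and the 6 erythroid and mast cell markers to 0.197 to 1.54 CPM, with 4 of the last at 0 everywhere. What part these differences have in the results was not tested.

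The mature sequence of miR-182-5p (RefSeq, GRCm38.p6, chr6:30165962-30165986, minus strand) is shown because its seed, bases 2 to 8 in capitals, sets which 3′ UTRs it can pair with.
miR-182-5p: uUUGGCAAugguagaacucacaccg
All 10 members had an annotated 3′ UTR in GENCODE vM21 (GRCm38). The site TGCCAAA, which pairs with bases 2 to 7 and is followed by an A, was in none of them, against 12.9% of the 19506 listed genes with a 3′ UTR. The site TTGCCAA, which pairs with bases 2 to 8, was in 1 member, *Gsdmd*, against 11.5% of those genes. It lies in the last exon at chr15:75867299-75867305 on the plus strand, from base 60 of a 3′ UTR of 169 bases, and is in capitals.
Gsdmd site: aaggtagaatcTTGCCAAgcctagccttt
The longest annotated 3′ UTRs of *Casp1*, *Casp4*, *Mlkl*, *Ripk3* and *Gsdmd* were 88 to 254 bases long, and those of *Pycard* and *Ripk1* reached 3004 and 4365 bases. A match to these letters is a description and not a test of binding.

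Compared per length, as CPM per kilobase, *Casp1* led the members without RANKL and *Gsdmd* after it. In WT Basal cells the members other than *Il1b* ran from 3.49 for *Casp4* to 63.7 for *Casp1*, and *Casp1* was the highest member in all 4 conditions without RANKL. After RANKL *Gsdmd* was the highest, at 238 CPM per kilobase in WT and 218 in Mir182ΔM/ΔM, against 46.9 and 48.4 before. *Ripk3*, sixth of the 10 in both genotypes without RANKL, was behind only *Gsdmd* at 82.8 in Mir182ΔM/ΔM RANKL and stood at 43.6 in WT RANKL. *Il1b*, which encodes pro-IL-1β, was the lowest member in every condition, at 0.0978 to 0.392 CPM per kilobase. It rested on 2 to 19 reads a library, where 3 reads are 0.0908 to 0.120 CPM. In the same libraries *Nlrp3*, *Pycard* and *Casp1*, the genes of the complex that cleaves its product, were between 40.8 and 119.6 CPM.

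**Figure D1:**
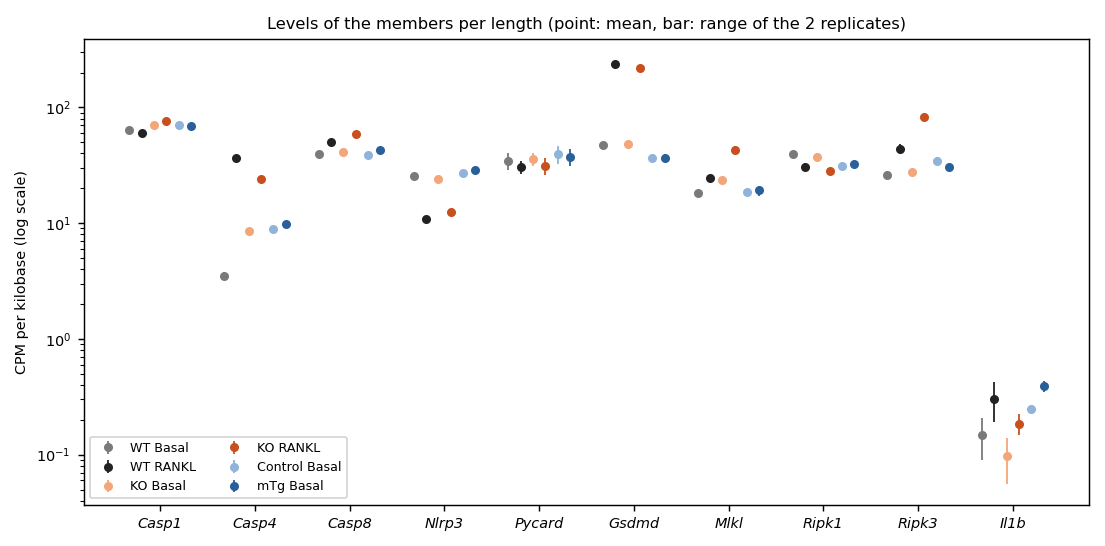
Level of each member as CPM per kilobase (log axis) in the 6 conditions, with the mean as a point and the range of the 2 replicates as a bar (KO, Mir182ΔM/ΔM; mTg, Mir182mTg). *Gsdmd* reached 238 and 218 after RANKL and *Il1b* stayed at 0.0978 to 0.392.

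With RANKL *Gsdmd*, *Casp4* and *Ripk3* rose and *Nlrp3* fell in both genotypes, and the necroptosis genes did not move in 1 direction. In WT, 5 members rose (*Casp4*, *Casp8*, *Gsdmd*, *Mlkl* and *Ripk3*) and 2 fell (*Nlrp3* and *Ripk1*), of the 9 that passed the filter of 1 CPM in 2 libraries. In Mir182ΔM/ΔM the same 5 rose and the same 2 fell. *Casp1* and *Pycard* did not pass the threshold in either genotype, and *Il1b* was below the filter. Of all 11691 genes tested, 40.6% were higher and 22.0% lower after RANKL in WT, and 30.4% were higher and 26.4% lower in Mir182ΔM/ΔM (limma with Benjamini-Hochberg adjustment), so changes were common. Fewer cells of a type and less RNA per cell cannot be told apart in bulk samples.

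*Gsdmd*, the pore-forming substrate of caspase-1 and caspase-11, read 79.3 and 87.5 CPM in WT Basal and 395 and 450.3 CPM in WT RANKL. In Mir182ΔM/ΔM it read 81.0 and 90.7 CPM and then 364 and 409.5 CPM. Every RANKL library was above every Basal library, and the genotypes overlapped in both states. The log2 fold change with RANKL was 2.33 ± 0.10 (SE) in WT (limma, adjusted p = 2.09e-06) and 2.16 ± 0.10 in Mir182ΔM/ΔM (limma, adjusted p = 3.91e-06).

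*Casp4* started lowest of the 9 tested members and had the largest change of them in WT. It read 5.41 and 4.65 CPM in WT Basal and 54.5 and 51.9 CPM in WT RANKL. On the log2 scale it rose by 3.17 ± 0.10 in WT (limma, adjusted p = 4.13e-07). In Mir182ΔM/ΔM it read 12.7 and 11.8 CPM and then 33.3 and 35.5 CPM, a rise of 1.41 ± 0.10 (limma, adjusted p = 2e-05). The order of the genotypes thus turned with RANKL, with no overlap in either state. Control averaged 12.9 CPM and Mir182mTg 14.1 CPM, both nearer to Mir182ΔM/ΔM Basal at 12.3 CPM than to WT Basal at 5.03 CPM. The experiments were separate, and no test was made across them. The *Casp4* gene lies on chromosome 9 at 5308828 to 5336783 (GRCm38, plus strand), downstream of *Casp1* at 5298517 to 5307265 on the same strand. On the plus strand *Gsdmd* lies at chr15:75862327-75867408, *Nlrp3* at chr11:59541568-59566956, *Casp8* at chr1:58795374-58847503 and *Ripk1* at chr13:34002363-34037147. On the minus strand *Ripk3* lies at chr14:55784995-55788865, *Mlkl* at chr8:111311797-111338177, *Pycard* at chr7:127989708-127993867 and *Il1b* at chr2:129364570-129371139.

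Promoter sequence of *Casp4* is shown because its response differed between the genotypes (RefSeq, GRCm38.p6, chr9:5308599-5308878, plus strand, 250 bases before to 30 after the start site). Capitals mark the match to the NF-κB consensus, which overlaps a second match shifted by 1 base and starts 93 bases before the start site. The consensus was searched on both strands, and 4.5% of 32851 RefSeq promoters of 300 bases held a match. It was chosen after the promoters had been seen, so this share cannot weigh the match.
Casp4 promoter: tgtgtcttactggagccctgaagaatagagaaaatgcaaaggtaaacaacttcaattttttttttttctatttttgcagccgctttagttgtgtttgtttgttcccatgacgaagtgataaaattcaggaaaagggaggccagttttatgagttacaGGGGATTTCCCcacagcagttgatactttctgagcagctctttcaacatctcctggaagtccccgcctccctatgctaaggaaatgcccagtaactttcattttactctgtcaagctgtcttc

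*Ripk3*, the kinase that activates MLKL, read 46.9 and 55.3 CPM in WT Basal and 77.0 and 94.3 CPM in WT RANKL. In Mir182ΔM/ΔM it read 50.2 and 57.8 CPM and then 151 and 174 CPM. The Basal libraries of the genotypes overlapped, and both Mir182ΔM/ΔM RANKL libraries were above every other library. The log2 fold change was 0.73 ± 0.14 in WT (limma, adjusted p = 0.00269) and 1.57 ± 0.14 in Mir182ΔM/ΔM (limma, adjusted p = 6.76e-05).

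Promoter sequence of *Ripk3* is shown as the other member whose response differed between the genotypes (RefSeq, GRCm38.p6, chr14:55788828-55789107, minus strand, 250 bases before to 30 after the start site). Capitals mark GAAANNGAA, the core of the element bound by interferon-activated factors (N, any base), which starts 14 bases after the start site. It was searched on both strands, and 8.56% of the 32851 promoters held it. This element too was chosen after the promoters had been seen, so the share cannot weigh the match.
Ripk3 promoter: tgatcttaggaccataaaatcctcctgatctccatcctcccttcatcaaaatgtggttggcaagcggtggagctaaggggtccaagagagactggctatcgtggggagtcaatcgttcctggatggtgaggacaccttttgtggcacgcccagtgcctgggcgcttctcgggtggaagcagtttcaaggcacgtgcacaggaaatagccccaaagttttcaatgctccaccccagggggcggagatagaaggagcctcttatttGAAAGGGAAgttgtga
RefSeq had promoters for 9 members. Besides *Ripk3*, 1 of the *Ripk1* promoters held GAAANNGAA. One of the *Nlrp3* promoters held the NF-κB consensus.

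*Mlkl*, the executioner of necroptosis, read 32.8 and 28.7 CPM in WT Basal and 44.0 and 39.3 CPM in WT RANKL. In Mir182ΔM/ΔM it read 41.7 and 38.0 CPM and then 78.5 and 68.6 CPM. The Mir182ΔM/ΔM Basal level overlapped WT RANKL. The log2 fold change with RANKL was 0.43 ± 0.11 in WT (limma, adjusted p = 0.0115) and 0.87 ± 0.11 in Mir182ΔM/ΔM (limma, adjusted p = 0.000442). *Casp8*, the brake on necroptosis, read 118 and 109.9 CPM in WT Basal, 151 and 141 CPM in WT RANKL, 123 and 117 CPM in Mir182ΔM/ΔM Basal and 172 and 166 CPM in Mir182ΔM/ΔM RANKL. It rose by a log2 fold change of 0.35 ± 0.07 in WT and 0.49 ± 0.07 in Mir182ΔM/ΔM.

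*Nlrp3*, the inflammasome sensor, was at its lowest after RANKL. It read 98.7 and 105 CPM in WT Basal and 40.8 and 45.8 CPM in WT RANKL, and 93.3 and 99.7 CPM in Mir182ΔM/ΔM Basal and 49.8 and 50.4 CPM in Mir182ΔM/ΔM RANKL. No RANKL library reached a Basal one, with log2 fold changes of -1.22 ± 0.08 in WT and -0.93 ± 0.08 in Mir182ΔM/ΔM. *Ripk1*, the upstream kinase, fell by less, from 186 and 169 to 147 and 128 CPM in WT and from 179.6 and 155 to 129 and 124 CPM in Mir182ΔM/ΔM. Its log2 fold changes were -0.37 ± 0.10 and -0.39 ± 0.10.

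*Casp1*, the inflammasome protease, read 99.5 and 93.4 CPM in WT Basal, 90.7 and 92.0 CPM in WT RANKL, 103 and 109 CPM in Mir182ΔM/ΔM Basal and 113 and 119 CPM in Mir182ΔM/ΔM RANKL. Its highest group mean was 1.27 times its lowest over the 6 conditions, the smallest such ratio of the 10 members. *Pycard*, the adaptor ASC, lay between 55.6 and 98.4 CPM, and replicate 2 was 1.29 to 1.41 times replicate 1 in every condition. Its groups overlapped in all comparisons. Its exons share 485 bases with *Gm45205*, a gene model on the opposite strand, and the strand setting of the counting is not given in the sources used here.

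The replicate numbers marked a difference between libraries that all conditions shared. With the replicate number as a block, *Pycard* was also called lower in both genotypes (limma, adjusted p = 0.00127 in WT and 0.000612 in Mir182ΔM/ΔM) and *Casp1* higher in Mir182ΔM/ΔM (limma, adjusted p = 0.00826). The block called 81.8% of all genes in WT and 79.0% in Mir182ΔM/ΔM. The median log2 fold change of all genes after RANKL was 0.187 in WT and 0.051 in Mir182ΔM/ΔM, and TMM scaling moved it to -0.004 and 0.016. Under TMM the split of genes called in WT was 3369 higher and 3562 lower, against 4741 and 2571 as deposited. Under it *Casp8* (0.14) and *Mlkl* (0.23) were no longer called in WT, and *Casp1* was called lower there (-0.28; limma, adjusted p = 0.00838). The calls of *Ripk1* were lost without WT Basal replicate 1 (-0.30), WT RANKL replicate 2 (-0.27), Mir182ΔM/ΔM Basal replicate 1 (-0.28) or Mir182ΔM/ΔM RANKL replicate 2 (-0.36), and that of *Mlkl* in WT without WT RANKL replicate 1 (0.35) or WT Basal replicate 2 (0.33). Without both WT RANKL libraries the response in Mir182ΔM/ΔM had 5 members higher and 2 lower, beside 3393 and 3021 of 11430 genes.

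**Figure D2:**
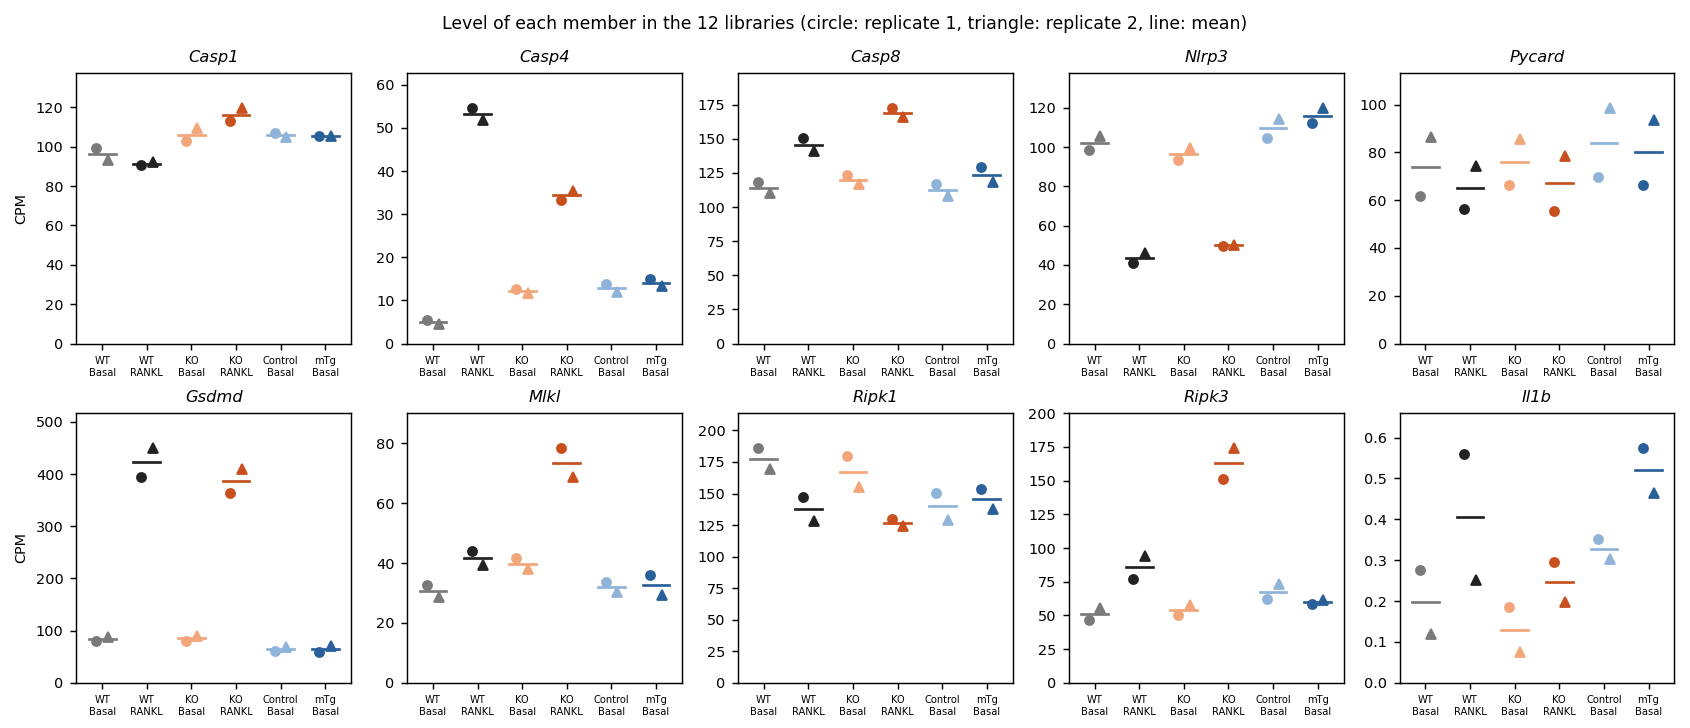
CPM of each member in the 12 libraries, with replicate 1 as a circle, replicate 2 as a triangle and the mean as a line (KO, Mir182ΔM/ΔM; mTg, Mir182mTg; each axis starts at 0). *Gsdmd* and *Casp4* stand above their Basal levels in all 4 RANKL libraries, and *Mlkl* and *Ripk3* are highest in KO RANKL, at 68.6 to 78.5 and 151 to 174 CPM.

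**Figure D3:**
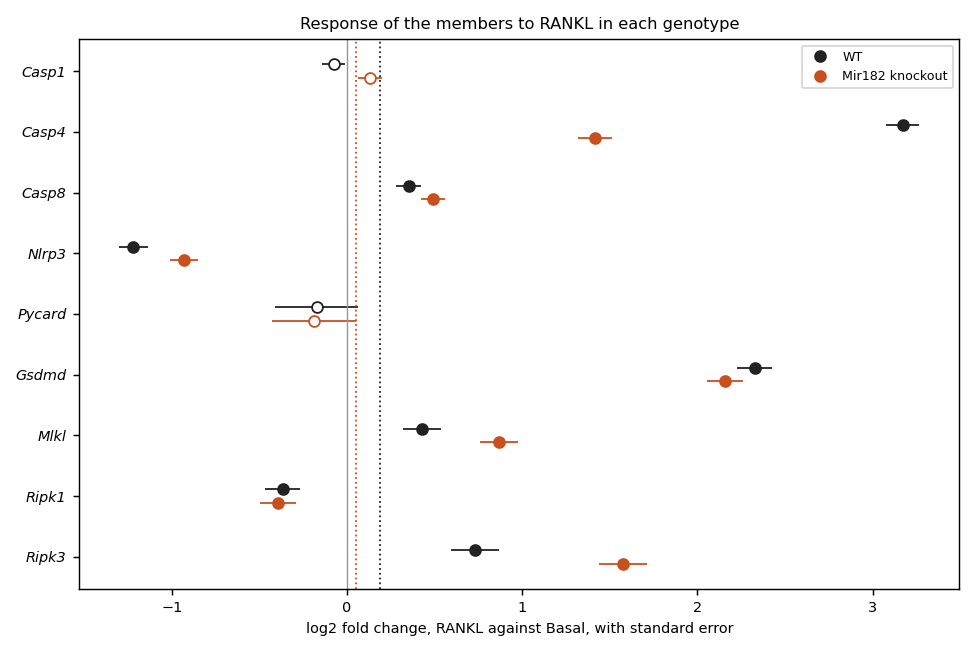
Log2 fold change of 9 members with RANKL in WT and Mir182ΔM/ΔM cells, with the standard error as a bar, filled points for adjusted p-values under 0.05 and dotted lines at the median of all genes (0.187 and 0.051). *Casp4* lies at 3.17 in WT and 1.41 in Mir182ΔM/ΔM, and *Ripk3* at 0.73 and 1.57.

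The comparison of genotypes asked how the members differ in cells without *Mir182*. Without RANKL 1 member of 9, *Casp4*, was higher in Mir182ΔM/ΔM and none was lower, while 2.71% of all genes were higher and 1.1% lower. The log2 fold change of *Casp4* was 1.14 ± 0.10 (limma, adjusted p = 0.00192), higher in both replicates (1.10 and 1.18 within replicates 1 and 2). At an unadjusted p under 0.05 the count was 2 members, *Casp4* and *Mlkl*, beside 1899 of all 11691 genes. *Mlkl* was 0.37 ± 0.11 higher without passing the adjusted threshold (limma, adjusted p = 0.146). With the replicate block *Mlkl* (limma, adjusted p = 6.72e-06) and *Casp1* (0.14; limma, adjusted p = 0.0184) were also called higher, when the block called 31.2% of all genes. Without both WT RANKL libraries *Casp4* remained the 1 member called, beside 212 genes higher and 79 lower of 11430.

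After RANKL 4 members were higher in Mir182ΔM/ΔM than in WT (*Ripk3*, *Mlkl*, *Casp1* and *Casp8*) and *Casp4* was lower. Among all genes 14.3% were higher and 30.9% were lower, with a median log2 fold change of -0.145. The median over the 9 members was 0.21. *Ripk3* was 0.92 ± 0.14 higher (limma, adjusted p = 0.0015) and *Mlkl* 0.81 ± 0.11 higher (limma, adjusted p = 0.000981), and both were higher in both replicates. *Casp1* was 0.34 ± 0.07 higher (limma, adjusted p = 0.00565) and *Casp8* 0.21 ± 0.07 higher (limma, adjusted p = 0.0422). *Casp4* was lower, at -0.62 ± 0.10 (limma, adjusted p = 0.00193). In the same libraries the 9 osteoclast markers summed to 3171 to 3201 CPM in Mir182ΔM/ΔM and 10585 to 10797 CPM in WT, the neutrophil markers to 7.19 to 7.36 and 21.9 to 22.2 CPM, and *Lyz2* differed as given above. The part of any of these in the differences was not tested.

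*Nlrp3* was 0.21 ± 0.08 higher in Mir182ΔM/ΔM without passing the threshold (limma, adjusted p = 0.0749), with no overlap between the groups. *Gsdmd* (-0.13 ± 0.10), *Ripk1* (-0.11 ± 0.10) and *Pycard* (0.03 ± 0.24) overlapped between the genotypes. The block also called *Nlrp3* higher (limma, adjusted p = 0.000302) and *Gsdmd* (limma, adjusted p = 0.00134) and *Ripk1* (limma, adjusted p = 0.0108) lower, when it called 73.2% of all genes. With TMM scaling, which moved the median of all genes to -0.004 and the split of calls from 1668 higher and 3607 lower to 2438 and 2362, *Gsdmd* (0.03) and *Ripk1* (0.04) changed sign and *Nlrp3* was called (0.36), while *Casp8* went to 0.37. Leaving out 1 library of the contrast brought *Nlrp3* down to 0.12 (without WT RANKL replicate 1), *Gsdmd* to -0.03 (without WT RANKL replicate 2) and *Ripk1* to -0.01 (without WT RANKL replicate 1). The call of *Casp8* was lost when any 1 of the 8 libraries was left out, with values of 0.17 to 0.26. *Ripk1* shares 241 bases of exon with *Serpinb6a* on the opposite strand.

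The interaction, the RANKL response in Mir182ΔM/ΔM minus that in WT, passed the threshold for 1 member in each direction. *Casp4* had -1.76 ± 0.14 (limma, adjusted p = 0.000202) and *Ripk3* 0.84 ± 0.19 (limma, adjusted p = 0.0189), against 17.1% of all genes lower and 7.44% higher. Within replicates 1 and 2 the values were -1.79 and -1.72 for *Casp4* and 0.87 and 0.82 for *Ripk3*. *Mlkl* (0.44 ± 0.15; limma, adjusted p = 0.0824), *Nlrp3* (0.29 ± 0.11) and *Casp1* (0.21 ± 0.10) did not pass. Under TMM all 3 were called, *Mlkl* at 0.60 (limma, adjusted p = 0.0296), *Nlrp3* at 0.45 (limma, adjusted p = 0.035) and *Casp1* at 0.38 (limma, adjusted p = 0.0288). The block also called *Mlkl* (limma, adjusted p = 1.74e-05), *Nlrp3*, *Casp1* and *Casp8* higher and *Gsdmd* (-0.17) lower, when it called 58.9% of all genes. Under TMM the median of all genes went from -0.151 to 0.005, the split of calls from 870 higher and 2005 lower to 1239 and 1274, and *Gsdmd* to 0.001. The call of *Ripk3* was lost without WT RANKL replicate 1 (0.70), Mir182ΔM/ΔM Basal replicate 1 (0.74), WT Basal replicate 2 (0.72) or Mir182ΔM/ΔM RANKL replicate 2 (0.74).

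**Figure D4:**
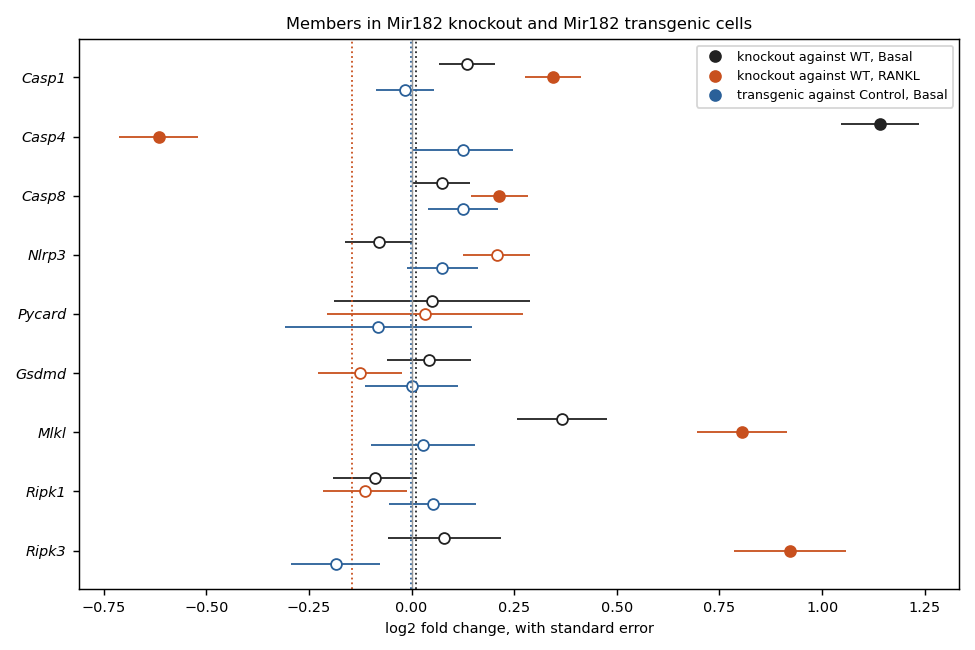
Log2 fold change of 9 members in Mir182ΔM/ΔM against WT, without and after RANKL, and in Mir182mTg against Control, with the standard error as a bar, filled points for adjusted p-values under 0.05 and dotted lines at the median of all genes. *Casp4* lies at 1.14 without RANKL and -0.62 after it, and no member of the transgenic comparison is filled.

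In the gain of function experiment no member was called in Mir182mTg against Control, of 10 tested with edgeR's quasi-likelihood test. Among 12081 genes 0.0993% were higher and 0.157% lower. At an unadjusted p under 0.05 the count was 0 members and 863 genes, and DESeq2 and limma also called 0 members. *Ripk3* read 62.0 and 73.4 CPM in Control and 58.4 and 61.4 CPM in Mir182mTg, a log2 fold change of -0.18 ± 0.11 with groups that did not overlap (edgeR, adjusted p = 0.938). *Casp8* read 117 and 108 CPM in Control and 129 and 118 CPM in Mir182mTg, also without overlap (0.13 ± 0.08; edgeR, adjusted p = 1.0). *Il1b* read 0.351 and 0.302 CPM in Control, from 11 and 8 reads, and 0.575 and 0.465 CPM in Mir182mTg, from 19 and 13 reads and without overlap (0.66 ± 0.36; edgeR, adjusted p = 0.915). The other 7 had differences of -0.08 to 0.13 and overlapped. The share of all genes without overlap is not given here, so a lack of overlap only describes these libraries. With the replicate block *Casp8* was called higher (edgeR, adjusted p = 0.0208) and *Ripk3* lower (edgeR, adjusted p = 0.0171), when the block called 15.1% of all genes. With each library left out, *Ripk3* ranged from -0.30 to -0.05, the latter without Control replicate 2, and *Casp8* from 0.06, without Mir182mTg replicate 1, to 0.19. The neutrophil markers summed to 49.5 to 50.7 CPM in Control and 107 to 117 CPM in Mir182mTg, and their part in the values of *Il1b* or any other member was not tested.

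Over the 6 conditions the members fell into different orders. *Casp4* ran from WT RANKL at 53.2 CPM through Mir182ΔM/ΔM RANKL at 34.4 CPM to WT Basal at 5.03 CPM, and of the neighbours Mir182mTg overlapped Control, and Control overlapped Mir182ΔM/ΔM Basal. *Ripk3* ran from Mir182ΔM/ΔM RANKL at 163 CPM and WT RANKL at 85.6 CPM through Control, Mir182mTg and Mir182ΔM/ΔM Basal to WT Basal at 51.1 CPM, and of the neighbours only the last pair overlapped. In *Mlkl* Mir182ΔM/ΔM RANKL at 73.5 CPM stood apart and WT RANKL overlapped Mir182ΔM/ΔM Basal. *Casp8* separated Mir182ΔM/ΔM RANKL at 169 CPM and WT RANKL at 146 CPM, and its 4 conditions without RANKL overlapped in turn. *Gsdmd* had both RANKL conditions overlapping at the top, and its Control and Mir182mTg levels of 64.5 and 64.9 CPM were below those of WT and Mir182ΔM/ΔM Basal. *Ripk1* overlapped in turn within WT and Mir182ΔM/ΔM Basal and within the other 4 conditions. In *Nlrp3* the 4 conditions without RANKL overlapped in turn above both RANKL conditions.

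Across the 12 libraries, on log2(CPM + 1), *Mlkl* and *Casp8* were the most alike pair of members, with Pearson's r of 0.92. The gene most like *Mlkl* among 9806 compared was *Pydc3* (r = 0.97), followed by *Gbp3* (0.96), both of which encode interferon-inducible proteins. The genes most like *Nlrp3* were *Pf4* (r = 0.997) and *Gramd1b* (0.99), and those most like *Gsdmd* were *Gstt1* (0.996) and *Marveld1* (0.99). *Gmeb2* (0.99) and *1110002L01Rik* (0.98) were most like *Casp4*, *Col4a5* (0.98) and *Alg9* (0.97) most like *Ripk3*, and *Cd52* (0.98) and *Tusc1* (0.97) most like *Casp8*. *Ddost* and *Pdlim5* (both 0.95) were most like *Casp1*, *Nfe2l2* and *Rnf2* (both 0.97) most like *Ripk1*, and *Frmd8* and *Pdrg1* (both 0.97) most like *Pycard*. These r values describe 12 libraries of 6 conditions and 2 library batches, and they carry no p-value.

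The partners of the members were followed in 4 lists of 80 genes, chosen with earlier results of these data known. Among the death receptor and necroptosis partners, 28 of 29 were tested. After RANKL 7 were higher and 8 lower in Mir182ΔM/ΔM than in WT, when 14.3% of all genes were higher and 30.9% lower, with a median log2 fold change of -0.07 against -0.145 for all genes. *Zbp1*, the nucleic acid sensor that activates RIPK3, read 21.7 and 18.8 CPM in WT Basal, 12.3 and 11.5 CPM in WT RANKL, 53.4 and 52.2 CPM in Mir182ΔM/ΔM Basal and 222 and 203 CPM in Mir182ΔM/ΔM RANKL. Like *Ripk3* and *Mlkl*, it was highest in the 2 Mir182ΔM/ΔM RANKL libraries. Its log2 difference between the genotypes was 1.34 ± 0.09 without RANKL (limma, adjusted p = 0.000804) and 4.05 ± 0.09 after it (limma, adjusted p = 5.26e-07), and its interaction was 2.70 ± 0.13. In the gain of function experiment it read 10.3 and 9.60 CPM in Control and 4.02 and 3.87 CPM in Mir182mTg, a fall of -1.35 ± 0.12 (edgeR, adjusted p = 0.0451), the 1 gene of the 4 lists called there.

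*Tlr3*, the receptor for double-stranded RNA that can reach RIPK3 through TRIF, was 1.33 ± 0.11 higher in Mir182ΔM/ΔM after RANKL, at 57.0 and 50.2 CPM against 21.7 and 19.7 CPM. RANKL raised *Birc3* and *Birc2*, which encode the cIAP proteins that ubiquitinate RIPK1. *Birc3* went from 50.8 and 49.5 to 289.6 and 288 CPM in WT and from 35.1 and 34.8 to 240.0 and 236 CPM in Mir182ΔM/ΔM, and *Birc2* from 23.5 and 22.4 to 88.8 and 92.0 CPM in WT and from 23.2 and 23.2 to 44.6 and 50.2 CPM in Mir182ΔM/ΔM. The interaction of *Birc2* was -0.94 ± 0.11 (limma, adjusted p = 0.00132). In this list of 28 tested genes RANKL gave 11 higher and 6 lower in WT, where 40.6% of all genes were higher and 22.0% lower. It gave 9 higher and 5 lower in Mir182ΔM/ΔM, where the shares of all genes were 30.4% and 26.4%, so the higher shares of the list were close to those of all genes.

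Of the IL-1 family and pore formation list, 7 of 15 were tested. A gene could pass the filter through the 2 libraries of 1 condition alone. The counts and medians of this list thus only describe it. After RANKL 5 of the 7 were higher in Mir182ΔM/ΔM than in WT, with a median of 0.99 against -0.145 for all genes, of which 14.3% were higher. In the interaction 5 were higher, with a median of 1.29 against -0.151 for all genes, of which 7.44% were higher. The largest difference was that of *Il1rn*, which encodes the IL-1 receptor antagonist and read 10.7 and 9.02 CPM in WT Basal, 64.3 and 52.3 CPM in WT RANKL, 15.7 and 12.1 CPM in Mir182ΔM/ΔM Basal and 255 and 215 CPM in Mir182ΔM/ΔM RANKL. It rose with RANKL in both genotypes, by 2.44 ± 0.16 in WT and 3.99 ± 0.16 in Mir182ΔM/ΔM, while *Il1b* was at most 0.575 CPM in the 12 libraries. *Il18bp*, the IL-18 binding protein, read 4.27 and 4.21 CPM in WT RANKL and 15.8 and 15.6 CPM in Mir182ΔM/ΔM RANKL (1.67 ± 0.08; limma, adjusted p = 9.93e-06). Both products block cytokines that caspase-1 matures. *Ninj1*, which encodes the protein that ruptures the membrane of dying cells, was -0.34 ± 0.06 lower in Mir182ΔM/ΔM without RANKL and fell with RANKL in WT (-0.86 ± 0.06). RANKL gave 1 higher and 4 lower of this list in WT and 4 higher in Mir182ΔM/ΔM, beside 40.6% and 22.0% of all genes in WT and 30.4% higher in Mir182ΔM/ΔM.

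Among the inflammasome sensors and regulators, 17 of 20 were tested, and RANKL gave 4 higher and 9 lower in WT and 3 higher and 10 lower in Mir182ΔM/ΔM, with medians of -0.42 and -0.35 against 0.187 and 0.051 for all genes. Of all genes 40.6% were higher and 22.0% lower in WT, and 30.4% and 26.4% in Mir182ΔM/ΔM. *Mefv*, which encodes pyrin, rose from 0.489 and 0.401 to 19.9 and 22.1 CPM in WT (3.93 ± 0.10) and from 0.407 and 0.560 to 10.2 and 9.84 CPM in Mir182ΔM/ΔM (2.90 ± 0.10). *P2rx7*, the ATP receptor upstream of NLRP3, fell with *Nlrp3* in Mir182ΔM/ΔM (-1.005 ± 0.07), at 69.0 and 70.2 CPM against 142 and 139 CPM. In WT it also read lower after RANKL, at 75.2 and 73.0 CPM against 171 and 157 CPM. *Nlrc3*, a negative regulator, was 1.11 ± 0.13 higher in Mir182ΔM/ΔM than in WT after RANKL, where 3 of the list were higher and 6 lower, beside 14.3% and 30.9% of all genes. *Nlrp1a* was the 1 gene of the list called without RANKL, at 10.1 and 10.3 CPM in Mir182ΔM/ΔM against 19.9 and 19.9 CPM in WT (-0.90 ± 0.08).

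All 16 apoptotic caspases and mitochondrial death genes were tested. RANKL gave 5 higher and 5 lower in WT and 5 higher and 6 lower in Mir182ΔM/ΔM, beside 40.6% and 22.0% of all genes in WT and 30.4% and 26.4% in Mir182ΔM/ΔM. *Bcl2*, an inhibitor of mitochondrial death, fell from 26.9 and 24.1 to 5.55 and 4.53 CPM in WT and from 35.6 and 32.6 to 5.26 and 5.82 CPM in Mir182ΔM/ΔM, and *Bcl2l1*, which encodes BCL-XL, fell by 2.12 on the log2 scale in WT. Between the genotypes after RANKL 1 was higher and 5 lower, beside 14.3% and 30.9% of all genes. *Casp6* was -0.75 ± 0.10 lower in Mir182ΔM/ΔM and *Bcl2a1b* -1.54 ± 0.10 lower, the latter with near-identical gene copies that reads can be split between.

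Without RANKL few of the 4 lists' genes were called between the genotypes: 1 necroptosis partner was higher (*Zbp1*) and 1 lower (*Birc3*, -0.51 ± 0.06), and *Nlrp1a* and *Ninj1* were lower, beside 2.71% of all genes higher and 1.1% lower. With the replicate block 5 necroptosis partners were higher and 3 lower, 1 sensor was higher and 5 lower, 1 gene of the IL-1 and pore list was higher and 1 lower, and 2 apoptotic genes were higher and 2 lower, when it called 31.2% of all genes. After RANKL the block raised the sensors higher in Mir182ΔM/ΔM from 3 to 5 and the apoptotic genes from 1 to 4. Over all 11691 genes it raised those higher from 1668 to 2740. For the RANKL response the block raised the necroptosis partners higher in Mir182ΔM/ΔM from 9 to 14, and all genes higher from 3555 to 4997. In the interaction the lists had 2 sensors higher and 3 lower, 5 necroptosis partners higher and 3 lower and 1 apoptotic gene higher and 3 lower, beside 7.44% and 17.1% of all genes, and the block gave 3 and 5, 8 and 10, and 4 and 5, when it called 58.9%. In Mir182mTg the block called 3 sensors, 3 genes of the IL-1 and pore list and 2 necroptosis partners higher, and 1, 1 and 3 lower, with 3 apoptotic genes lower, when it called 15.1% of all genes.

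**Figure D5:**
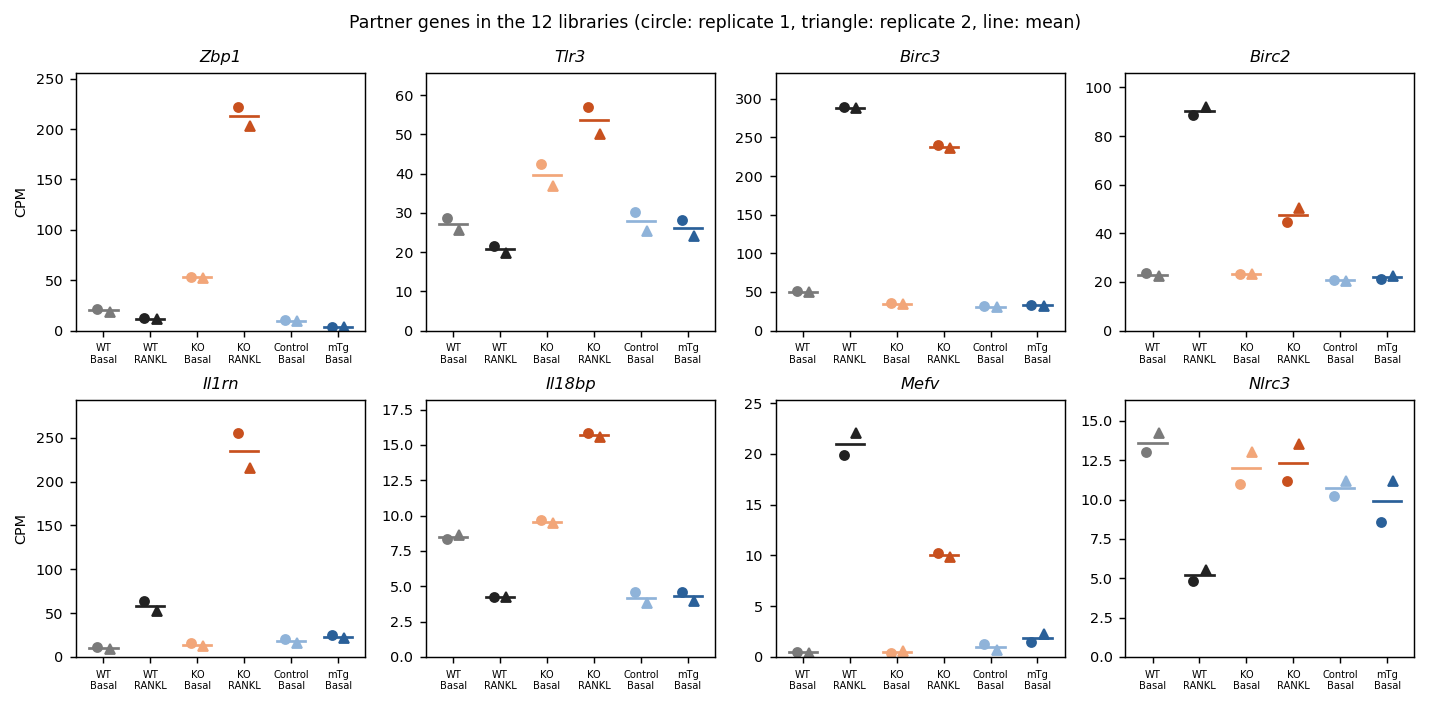
CPM of 8 partner genes in the 12 libraries, with replicate 1 as a circle, replicate 2 as a triangle and the mean as a line (KO, Mir182ΔM/ΔM; mTg, Mir182mTg; each axis starts at 0). *Zbp1* reached 203 and 222 CPM and *Il1rn* 215 and 255 CPM in KO RANKL, above all other libraries, while *Mefv* and *Birc2* were highest in WT RANKL.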

How the data were processed

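The members and the lists of partner genes and markers were chosen with earlier results of these data known. According to the methods and the submitters' notes, the authors made poly-A+ libraries and aligned reads to mm10, with TopHat and Cufflinks named for replicate 1 and HISAT2, HTSeq and edgeR for replicate 2. For the loss of function libraries the authors deposited CPM, and for the gain of function libraries the authors deposited counts per gene. The deposited files of replicate 1 add RPKM. Its ratio to CPM gave each gene's length, which was used for levels per kilobase in all libraries. All CPM values (100% at a tolerance of 0.1 read) were whole multiples of 1 read, so reads could be recovered and edgeR run on them as an alternative.

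Because the loss of function files hold CPM, limma 3.58.1 (lmFit, then eBayes with its trend option) was used for them, on the log2 scale after adding 1 CPM. The fit had 4 groups and 11691 genes, each reaching 1 CPM in 2 or more of 8 samples. This scale understates the change of low genes. The counts of the gain of function samples went into edgeR 4.0.16 (TMM, filterByExpr, quasi-likelihood), with DESeq2 1.42.0 as an alternative. P-values were adjusted by Benjamini-Hochberg over all genes of a comparison. Standard errors are those of limma and, for edgeR, the absolute log2 fold change over the square root of the F value, and no fold cut was used. Depth was 24951280 to 33050619 reads on genes, and 3 reads equal 0.0908 to 0.120 CPM. Intervals were not computed, and reads without molecular identifiers are not independent molecules. The scripts were tested on simulated data.

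The log2 ratios of replicate 2 to replicate 1 correlated between every pair of conditions (Pearson's r 0.69 to 0.758 over 11691 genes), so the replicate numbers pair the samples. The labels give polyA RNA for replicate 1 and total RNA for replicate 2, and *Rn45s* read 742 to 1176 CPM in replicate 1 and 9778 to 21273 CPM in replicate 2. Replicates were not 1 library deposited again (mean chi-square per gene 38.9 to 72.2, against 1 for sampling noise).

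Named genes are the 10 members, the 2 genes of each list with the largest change per comparison among those called with at least 5 CPM in the higher group and no overlap, the 2 genes most like each member by Pearson's r among genes with a mean of at least 5 CPM, and the checks of the samples. Positions and 3′ UTRs are from GENCODE vM21, and promoters and the miRNA from RefSeq. The promoter elements were chosen after the promoters had been seen, and 1 further element that was searched is not reported here. No promoter was used here for *Gsdmd*. Gene names turned into dates (27) were not identified.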

Additional observations from a re-analysis of the deposited data

Results flagged for a closer look

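The response to RANKL differed between Mir182ΔM/ΔM and WT cells for 2 members by limma's test of the interaction. *Casp4* had -1.76 (adjusted p = 0.000202), with a higher Basal level and a lower RANKL level in both replicates of Mir182ΔM/ΔM. *Ripk3* had 0.84 (limma, adjusted p = 0.0189), with the larger rise in both replicates of Mir182ΔM/ΔM. With 1 library left out the value of *Ripk3* ranged from 0.697 to 0.986, and its call was lost in 4 of 8 fits. Both interactions rest on the WT RANKL libraries, whose *Lyz2* and *Ifi202b* levels stood apart from the rest of their experiment. What part that has in the difference was not tested.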

How the results depend on the processing

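Of 882 recomputed member differences, 759 kept their direction and their side of the threshold, 50 kept their direction and were newly called, 23 lost the call and 50 changed sign, of which 4 were then called. The cause of these changes was not tested. Of the 759, 357 were called in both fits, and the others were called in neither. In the limma fits, another filter or a library left out from outside the contrast cannot change a fold change. The direction of part of this total was thus fixed in advance.

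With the replicate block, which the pairing of the samples calls for, 3 members were lower in Mir182ΔM/ΔM after RANKL, beside 5815 of all 11691 genes. Without RANKL 3 were higher, beside 2170 of all genes. In the interaction 5 were higher and 2 lower, beside 1888 and 5001 of all genes. In Mir182mTg 1 was higher and 1 lower, beside 838 and 984 of 12081 genes. With TMM factors 3 members were higher in the RANKL response of WT and 4 in the interaction, beside 3369 and 1239 of 11691 genes. With edgeR on recovered reads the member counts were the same, beside 3356 and 1133 genes. With the block and TMM factors together, 3 were higher and 1 lower in Mir182ΔM/ΔM without RANKL, beside 1955 and 1694 genes. With RANKL in WT 4 were lower, beside 4714 genes, and in the interaction 7 were higher, beside 3166 genes. With edgeR and the block these member counts were the same, beside 1915 and 1767, 4737, and 3044 genes. Beyond these, the calls that the block changed are given in the report.

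Sign changes were among members that were not called without the block. In Mir182ΔM/ΔM against WT after RANKL, *Gsdmd* was 0.027 with TMM factors with or without the block, 0.021 with edgeR and 0.022 with edgeR and the block, and *Ripk1* was 0.039, 0.032 and 0.032. In the interaction *Pycard* was 0.150, 0.161 and 0.153 under the same settings, *Ripk1* was 0.144, 0.135 and 0.137, and *Gsdmd* was 0.001 with TMM factors with or without the block. *Pycard* and *Ripk1* were called higher there with the block and TMM factors and with edgeR and the block. In Mir182mTg *Gsdmd*, at -0.00, was 0.002 with no filter or with 1 CPM in every sample, 0.009 with total counts and 0.008 with limma.

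With each library left out in turn, the members lower with RANKL ranged from 1 to 2 in WT and from 1 to 2 in Mir182ΔM/ΔM, and those higher in the interaction from 0 to 1. *Pycard* ranged from -0.213 to 0.279 in Mir182ΔM/ΔM against WT after RANKL, -0.193 to 0.291 without RANKL, -0.416 to 0.068 for RANKL in WT, -0.435 to 0.056 for RANKL in Mir182ΔM/ΔM, -0.262 to 0.230 in the interaction and -0.345 to 0.195 in Mir182mTg. In Mir182ΔM/ΔM against WT without RANKL, *Gsdmd* ranged from -0.039 to 0.122, *Ripk1* from -0.197 to 0.017 and *Ripk3* from -0.036 to 0.197. In the interaction *Ripk1* ranged from -0.131 to 0.083. In Mir182mTg *Gsdmd* ranged from -0.111 to 0.1, *Mlkl* from -0.127 to 0.163 and *Ripk1* from -0.051 to 0.163. Where a group was left with 1 library, it was taken to vary like the other groups. Leaving out both WT RANKL libraries was chosen after the data were seen. *Il1b* rested on at most 19 reads a library, so only large changes of it could be detected.

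Counts over all genes moved too. In Mir182ΔM/ΔM against WT after RANKL, 1668 genes were higher and 3607 lower, 2740 and 5815 with the block, 4103 and 4006 with the block and TMM factors, 2389 and 2362 with edgeR and 4080 and 4073 with edgeR and the block. Without RANKL the counts were 317 and 129, 2170 and 1481 with the block, 1955 and 1694 with the block and TMM factors, 1915 and 1767 with edgeR and the block, 71 and 31 from the samples of the contrast alone and 212 and 79 without both WT RANKL libraries. In the interaction they were 870 and 2005, 1888 and 5001 with the block, 3166 and 2898 with the block and TMM factors, 1133 and 1125 with edgeR and 3044 and 2794 with edgeR and the block. For RANKL in WT they were 4741 and 2571, 4629 and 4714 with the block and TMM factors and 4627 and 4737 with edgeR and the block. In Mir182mTg they were 12 and 19, 838 and 984 with the block, 70 and 71 with no filter, 8 and 8 with 1 CPM in every sample, 60 and 69 with DESeq2 and 22 and 24 with limma. With each library left out, the counts higher and lower ranged from 69 to 212 and 28 to 81 in Mir182ΔM/ΔM against WT without RANKL, 631 to 704 and 1271 to 1543 in the interaction and 31 to 85 and 24 to 81 in Mir182mTg, with the lowest pair of the first without Mir182ΔM/ΔM Basal replicate 1 and 85 and 81 in Mir182mTg without Control replicate 2.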
